A study of Homo sapiens with 3 samples.

Results

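DANCR, GAS5 and 8 further host RNAs of small nucleolar RNAs (SNHG1, SNHG5, SNHG6, SNHG8, SNHG12, SNHG15, SNHG16 and ZFAS1) were followed in HGC-27, an established cell line from an undifferentiated human gastric carcinoma. The members were taken by gene name, and 10 of 10 names had 1 row each among the 50868 genes of the table. The set was selected on FPKM and counts of these 3 libraries, in which DANCR was higher with YAP siRNA, so values of the members in comparisons with that library are given as a description. Cells at passage 6 were transfected for 48 h with an siRNA against YAP, the transcriptional coactivator held back by the Hippo pathway, with one against IRF3, which switches on interferon genes after viral infection, or with a control siRNA. With 1 library sequenced per condition, the differences below have neither replicates nor a p-value.

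A snoRNA host gene is transcribed and spliced like other genes, and the small nucleolar RNAs are cut out of its introns. Box C/D snoRNAs guide ribose methylation and box H/ACA snoRNAs guide pseudouridylation, mostly of ribosomal RNA. The spliced exons of several hosts carry a terminal oligopyrimidine (TOP) start, as ribosomal protein mRNAs do, and are degraded by nonsense-mediated decay when ribosomes engage them. DANCR, the differentiation antagonizing noncoding RNA, keeps epidermal progenitors undifferentiated, and GAS5 accumulates in growth-arrested cells and binds the glucocorticoid receptor.

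RefSeq places 36 snoRNAs within the 10 genes, of which 28 carry a box C/D name and 7 a box H/ACA name. GAS5 holds 11 of them, SNHG1 9, SNHG12 4, SNHG16 and ZFAS1 3 each, SNHG5 2, and DANCR, SNHG6, SNHG8 and SNHG15 1 each. The deposited table starts at genes spanning 200 bases and has 0 rows for small RNAs inside the members, so only the host genes have values. Whether reads from a snoRNA that overlaps a host exon were counted to the host is not known here. The lines below show, for 5 hosts, a snoRNA they carry, from GENCODE release 29 on GRCh38. Capitals mark the TGATGA core of box C and the CTGA of box D in the SNORD lines, and the ACA that lies 3 bases before the end in the SNORA lines.
SNORA26 (in DANCR): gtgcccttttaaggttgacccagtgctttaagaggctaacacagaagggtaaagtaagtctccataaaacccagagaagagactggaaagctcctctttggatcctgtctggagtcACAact
SNORA24 (in SNHG8): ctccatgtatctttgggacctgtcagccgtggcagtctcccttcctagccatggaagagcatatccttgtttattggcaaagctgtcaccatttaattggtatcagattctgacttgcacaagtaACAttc
SNORD25 (in SNHG1): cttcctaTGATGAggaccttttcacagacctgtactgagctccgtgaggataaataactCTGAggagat
SNORD50B (in SNHG5): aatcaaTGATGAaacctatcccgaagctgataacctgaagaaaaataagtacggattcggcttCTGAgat
SNORD12C (in ZFAS1): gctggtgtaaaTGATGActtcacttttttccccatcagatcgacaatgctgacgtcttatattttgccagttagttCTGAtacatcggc

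SNORA26 (chr4:52713249-52713370, plus strand) lies in an intron of 3 of the 5 annotated DANCR transcripts and in an exon of 0. SNORD12C overlaps an exon in 0 of 10 ZFAS1 transcripts and SNORA24 in 1 of 5 SNHG8 transcripts. SNORD50B does so in 2 of 23 SNHG5 transcripts and SNORD25 in 5 of 25 SNHG1 transcripts. DANCR also spans the microRNA gene MIR4449, whose mature form is printed with its seed, bases 2 to 8, in capitals from RefSeq on GRCh38.p14.
hsa-miR-4449: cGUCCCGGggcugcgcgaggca

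The start regions of the hosts were read from the RefSeq promoter table on GRCh38.p14, which matched 8 of the 10 members by symbol (DANCR, GAS5, SNHG1, SNHG5, SNHG8, SNHG12, SNHG16 and ZFAS1). They are shown because a pyrimidine-rich start is the feature that hosts are known to share with ribosomal protein genes. Each line gives 40 bases before the annotated start and 25 from it on, with the longest run of C and T that reaches within 10 bases of the start in capitals.
DANCR: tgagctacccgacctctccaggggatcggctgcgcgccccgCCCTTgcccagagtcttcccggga
GAS5: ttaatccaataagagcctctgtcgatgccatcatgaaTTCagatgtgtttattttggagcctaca
SNHG1: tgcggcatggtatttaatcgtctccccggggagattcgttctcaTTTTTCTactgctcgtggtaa
SNHG5: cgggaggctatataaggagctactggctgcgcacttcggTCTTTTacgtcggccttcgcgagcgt
SNHG8: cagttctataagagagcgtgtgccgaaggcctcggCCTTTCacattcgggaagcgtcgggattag
SNHG12: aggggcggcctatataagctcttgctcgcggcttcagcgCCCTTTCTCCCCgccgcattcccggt
SNHG16: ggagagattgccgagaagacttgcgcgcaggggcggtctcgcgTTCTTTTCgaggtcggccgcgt
ZFAS1: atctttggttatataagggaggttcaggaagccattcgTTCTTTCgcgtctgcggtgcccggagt

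A run of at least 5 pyrimidines reached that window in 7 of the 8 members, and in 47.5% of all 35114 promoters of the table. A run of at least 7 did so in 4 of 8 members (SNHG1, SNHG12, SNHG16 and ZFAS1), and in 21.3% of all promoters. The run of DANCR had 5 bases and that of GAS5 had 3. The annotated GAS5 start lies 163 bases upstream of the gene's deposited edge, and the offsets of the others run from 2 bases for SNHG16 to 1110 for SNHG12, so these windows depend on the annotation. The TATA element TATAA stood 40 to 21 bases before the start, on the sense strand, in SNHG5, SNHG8, SNHG12 and ZFAS1. That is 4 of 8 members, beside 3.89% of all promoters.

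Over the 300 bases from 250 before to 50 after the start, searched on both strands, TATAA was found in 5 of 8 members and in 20.4% of all promoters. The TEAD element CATTCC, bound by the partners of YAP, was found in 1 of 8 members, SNHG12, and in 14.03% of all promoters. The E-box CACGTG (7.26% of all promoters) and the interferon response element (3.57%) were found in 0 of 8. These matches describe letters in a window and say nothing of binding. The motif CCAAT, or its complement ATTGG, was looked for after the DANCR sequence had been read. DANCR had 5 copies, which 0.359% of all promoters reach, GAS5 had 3, SNHG5 had 1 and the other 5 members had 0. The DANCR promoter (chr4:52712144-52712443, plus strand) is printed with these copies in capitals.
DANCR promoter: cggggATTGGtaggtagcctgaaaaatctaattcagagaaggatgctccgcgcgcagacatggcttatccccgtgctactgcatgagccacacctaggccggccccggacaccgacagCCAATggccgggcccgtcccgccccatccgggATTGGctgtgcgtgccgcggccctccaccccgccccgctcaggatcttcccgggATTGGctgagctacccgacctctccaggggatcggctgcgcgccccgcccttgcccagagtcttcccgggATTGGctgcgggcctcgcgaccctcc

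Gene counts summed to 14385959 in the YAP siRNA, 14941556 in the IRF3 siRNA and 13949401 in the control library. YAP1, the gene of YAP, had 337 counts with YAP siRNA, 561 with IRF3 siRNA and 861 with control siRNA, a count ratio of 0.380 for YAP siRNA over control and 0.608 for IRF3 siRNA over control. IRF3 had 764, 597 and 681 counts in the same order, a ratio of 0.818 for IRF3 siRNA over control. The targeted gene thus bears out the label of that library less clearly. In the IRF3 siRNA library YAP1 was further below control than IRF3 was. The YAP siRNA and IRF3 siRNA libraries are called knockdown libraries below by their labels alone. Of 6 mesenchymal markers, 4 had a mean of at least 1 FPKM. Among them VIM stood at 469, 451 and 511 FPKM with YAP, IRF3 and control siRNA. In the same order CDH2 (0.130, 0.0732 and 0.0560 FPKM) and ZEB1 (0.285, 0.144 and 0.491 FPKM) did not reach a mean of 1 FPKM. Of the 10 epithelial markers 1 reached that level, CLDN7, and of the 6 gastric markers 0 did, with 4 of them at 0 counts in each library. Of 3 endothelial markers, 0 reached it. In the same order of libraries the epithelial markers summed to 3.92, 3.25 and 3.07 FPKM. The mesenchymal ones, mostly VIM, summed to 533, 509 and 587 FPKM. The part of these markers in the results below was not tested.

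FPKM, the deposited unit, is the count divided by gene length and by the library total. All 10 members had a mean of at least 1 FPKM over the 3 libraries and so were among the 11103 genes kept for comparison. Differences are given as the log2 ratio of FPKM plus a pseudocount of 1, and the call of a difference required 2-fold, a log2 ratio of 1. A count ratio, scaled by the library totals, is given beside it with an exact (Clopper-Pearson) 95% interval that covers counting error only. In bulk RNA, fewer cells with a transcript and less of it per cell cannot be told apart.

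DANCR (ENSG00000226950, chromosome 4, 52712404 to 52720351, plus strand, hg38) stood at 62.7 FPKM with YAP siRNA, 26.1 with IRF3 siRNA and 25.6 with control siRNA, from 2470, 1069 and 980 counts. The YAP siRNA library stood apart from the other libraries, which lay close together. The log2 ratio of YAP siRNA over control was 1.26, with a count ratio of 2.44 (counting interval 2.27 to 2.63), and of YAP siRNA over IRF3 siRNA it was 1.23, with a count ratio of 2.40 (2.23 to 2.58). Between IRF3 siRNA and control it was 0.03, with a count ratio of 1.02 (0.933 to 1.11), so a difference was not detectable at this depth. DANCR had the 19th highest ratio of YAP siRNA over control among the 11103 genes and the 8th highest among the 5291 genes with a mean of at least 5 FPKM. It had the highest of the 775 long noncoding genes kept. The pseudogene RP11-177B4.1 on the opposite strand shares 271 exon bases with DANCR and had 2, 4 and 16 counts with YAP, IRF3 and control siRNA, and whether reads were counted by strand is not known here.

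**Figure D1:**
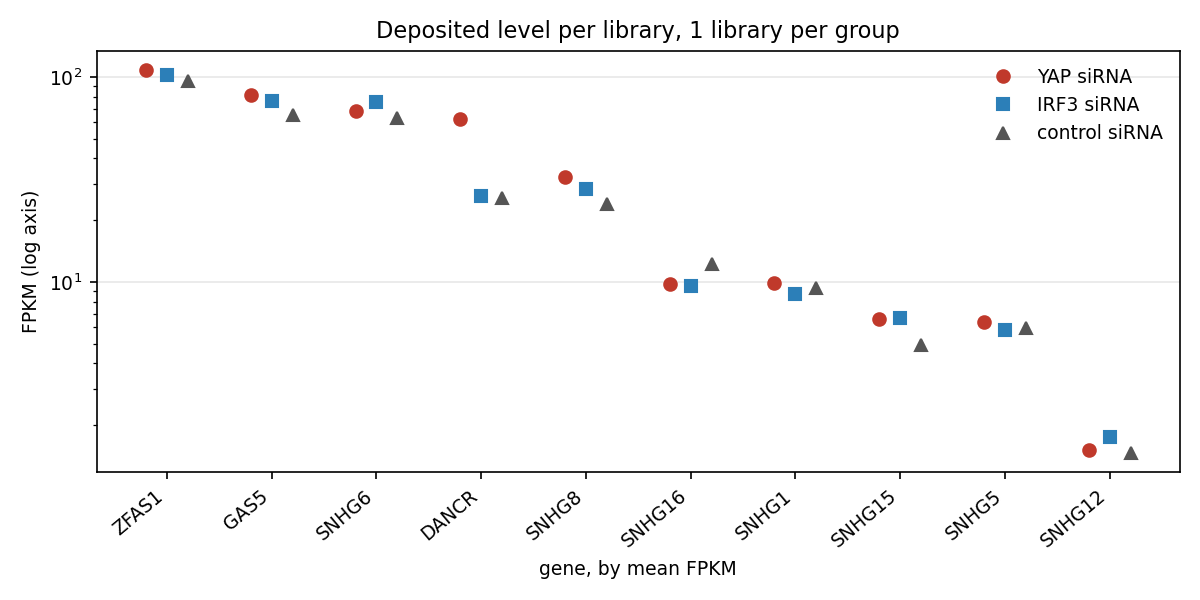
Deposited FPKM (log axis) of the 10 host RNAs in the YAP siRNA (circles), IRF3 siRNA (squares) and control siRNA (triangles) library, 1 point per library, ordered by mean FPKM. DANCR stands at 62.7 FPKM with YAP siRNA, against 26.1 with IRF3 siRNA and 25.6 with control siRNA, while the points of each other gene lie close together.

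DANCR was the single member called higher with YAP siRNA than with control, 1 of 10, where 0.351% of all genes tested were called higher. No member was called lower, where 0.468% of all genes were. The choice of DANCR used this contrast, so nothing is read from that count. With IRF3 siRNA against control, 0 of 10 members were called higher and 0 lower, beside 0.387% and 0.612% of all genes. In the comparison of YAP siRNA with IRF3 siRNA, DANCR was called higher (1 of 10, beside 0.315%) and 0 of 10 were lower (0.297%). This comparison shares the YAP siRNA library used in the choice of DANCR, so nothing is read from that count either. At a threshold of 1.5-fold DANCR was still the single member called higher (1.59% of all genes for YAP siRNA over control and 1.28% for YAP siRNA over IRF3 siRNA), and 0 of 10 were called lower (4.64% for YAP siRNA over control, 5.88% for IRF3 siRNA over control and 1.18% for YAP siRNA over IRF3 siRNA). A log2 ratio above 0 was found in 9 of 10 members for YAP siRNA over control (46.5% of all genes), 7 for IRF3 siRNA over control (46.1%) and 7 for YAP siRNA over IRF3 siRNA (51.8%). In the tenth of genes with the highest mean FPKM, 834, 799 and 519 of 1111 were above 0 in that order of comparisons. The 9 other members spanned log2 ratios of -0.30 to 0.42 for YAP siRNA over control, -0.33 to 0.37 for IRF3 siRNA over control and -0.14 to 0.18 for YAP siRNA over IRF3 siRNA.

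**Figure D2:**
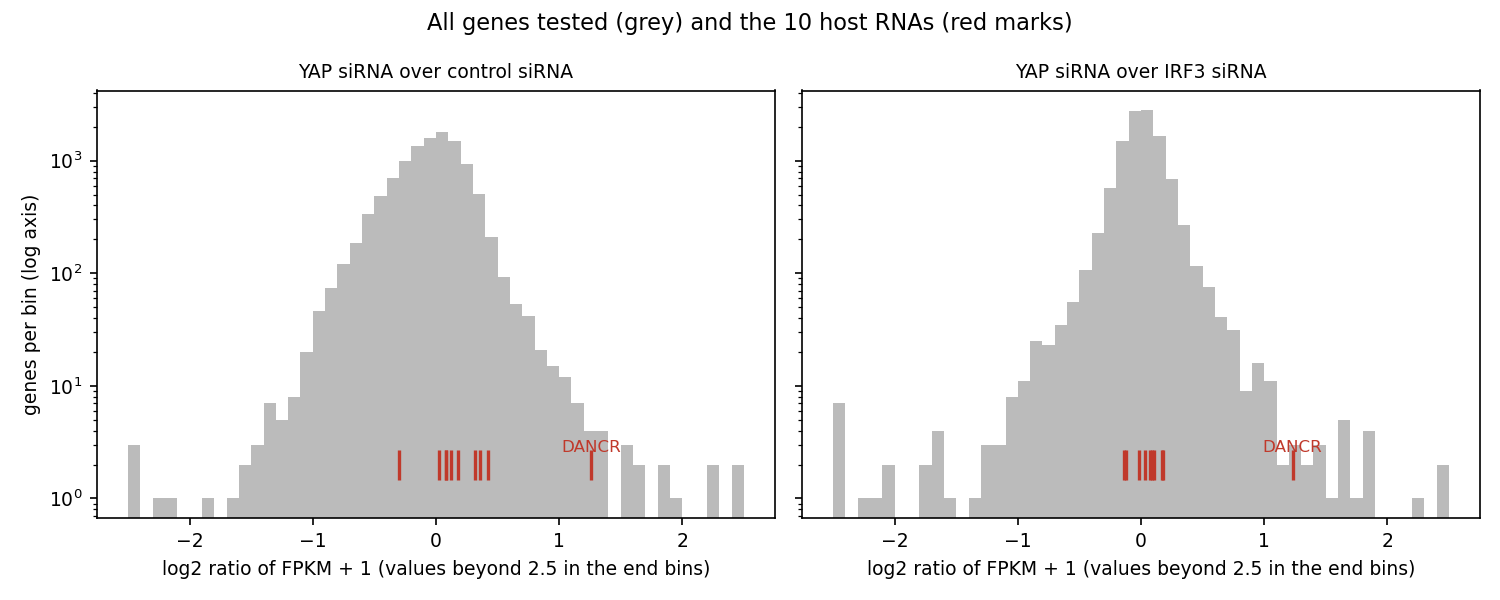
Number of genes tested (grey, log axis) by log2 ratio of FPKM + 1, for YAP siRNA over control siRNA (left) and YAP siRNA over IRF3 siRNA (right), with the 10 host RNAs as red marks. DANCR lies at 1.26 and 1.23, and the other 9 marks lie between -0.30 and 0.42.

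GAS5 (ENSG00000234741, chromosome 1, 173863900 to 173868882, minus strand), also named SNHG2, gave the most counts of all members. It stood at 81.4 FPKM with YAP siRNA, 76.5 with IRF3 siRNA and 65.0 with control siRNA, from 13726, 13382 and 10628 counts. Both knockdown libraries were above control, with count ratios of 1.25 (1.22 to 1.28) for YAP siRNA and 1.18 (1.15 to 1.21) for IRF3 siRNA and log2 ratios of 0.32 and 0.23, far short of 2-fold. YAP siRNA over IRF3 siRNA gave a count ratio of 1.07 (1.04 to 1.09). GAS5-AS1, an antisense RNA that shares 42 exon bases with GAS5, had 2, 3 and 3 counts with YAP, IRF3 and control siRNA.

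SNHG8, SNHG15 and SNHG12, whose snoRNAs are all or mostly of box H/ACA, are given next. SNHG8 (ENSG00000269893, chromosome 4, 118278709 to 118279823, plus strand), which carries SNORA24, stood at 32.5 FPKM with YAP siRNA, 28.5 with IRF3 siRNA and 24.1 with control siRNA, from 851, 776 and 611 counts. Its count ratio to control was 1.35 (1.22 to 1.501) with YAP siRNA and 1.19 (1.07 to 1.32) with IRF3 siRNA. SNHG8 thus had the second highest ratio of the members with YAP siRNA, after DANCR. SNHG15 (ENSG00000232956, chromosome 7, 44983023 to 44986961, minus strand), which carries SNORA9, stood at 6.58 FPKM with YAP siRNA, 6.65 with IRF3 siRNA and 4.91 with control siRNA, from 751, 789 and 543 counts. Both knockdown libraries exceeded control by about the same amount, with count ratios of 1.34 (1.20 to 1.5004) for YAP siRNA and 1.36 (1.21 to 1.52) for IRF3 siRNA. The comparison of YAP siRNA with IRF3 siRNA gave 0.989 (0.893 to 1.09) for SNHG15. SNHG12 (ENSG00000197989, chromosome 1, 28578538 to 28582983, minus strand), with 3 H/ACA and 1 C/D snoRNA, was the lowest member, at 1.51, 1.74 and 1.47 FPKM from 200, 239 and 188 counts with YAP, IRF3 and control siRNA. Its count ratios to control, 1.03 (0.841 to 1.27) with YAP siRNA and 1.19 (0.976 to 1.44) with IRF3 siRNA, had intervals that included 1.

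The hosts of box C/D snoRNAs differed among themselves, as did those of box H/ACA snoRNAs with DANCR among them. SNHG16 (ENSG00000163597, chromosome 17, 76557766 to 76565348, plus strand), which carries SNORD1A, SNORD1B and SNORD1C, was lower in both knockdown libraries. It stood at 9.78 FPKM with YAP siRNA, 9.55 with IRF3 siRNA and 12.2 with control siRNA, from 1786, 1811 and 2167 counts. The count ratios to control were 0.799 (0.750 to 0.851) with YAP siRNA and 0.780 (0.733 to 0.831) with IRF3 siRNA, and YAP siRNA over IRF3 siRNA gave 1.02 (0.959 to 1.09). SNHG16 was the single member with a counting interval below 1 in both comparisons with control.

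ZFAS1 (ENSG00000177410, chromosome 20, 49278178 to 49295738, plus strand), the antisense RNA at the start of ZNFX1 and carrier of the SNORD12 family, stood at 108 FPKM with YAP siRNA, 103 with IRF3 siRNA and 95.7 with control siRNA, from 4490, 4424 and 3850 counts. Its count ratio to control was 1.13 (1.08 to 1.18) with YAP siRNA and 1.07 (1.03 to 1.12) with IRF3 siRNA. SNHG6 (ENSG00000245910, chromosome 8, 66921684 to 66926398, minus strand), host of SNORD87, was highest with IRF3 siRNA, unlike the members above other than SNHG12 and SNHG15. It stood at 68.2, 75.1 and 62.8 FPKM with YAP, IRF3 and control siRNA, from 2017, 2305 and 1799 counts. The count ratio of SNHG6 to control was 1.09 (1.02 to 1.16) with YAP siRNA and 1.20 (1.12 to 1.27) with IRF3 siRNA, and 0.909 (0.856 to 0.965) for YAP siRNA over IRF3 siRNA.

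SNHG1 (ENSG00000255717, chromosome 11, 62851988 to 62855914, minus strand), with SNORD22 and SNORD25 to SNORD31, stood at 9.89, 8.68 and 9.31 FPKM with YAP, IRF3 and control siRNA, from 2031, 1852 and 1853 counts. The control library lay between the knockdown libraries, and the count ratio was 1.14 (1.07 to 1.21) for YAP siRNA over IRF3 siRNA, 1.06 (0.997 to 1.13) for YAP siRNA over control and 0.933 (0.874 to 0.996) for IRF3 siRNA over control. SNHG5 (ENSG00000203875, chromosome 6, 85660950 to 85678736, minus strand), host of SNORD50A and SNORD50B, had the narrowest spread, with 6.35, 5.83 and 5.94 FPKM from 975, 930 and 884 counts with YAP, IRF3 and control siRNA. Each of its 3 count ratios had an interval that included 1.

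**Figure D3:**
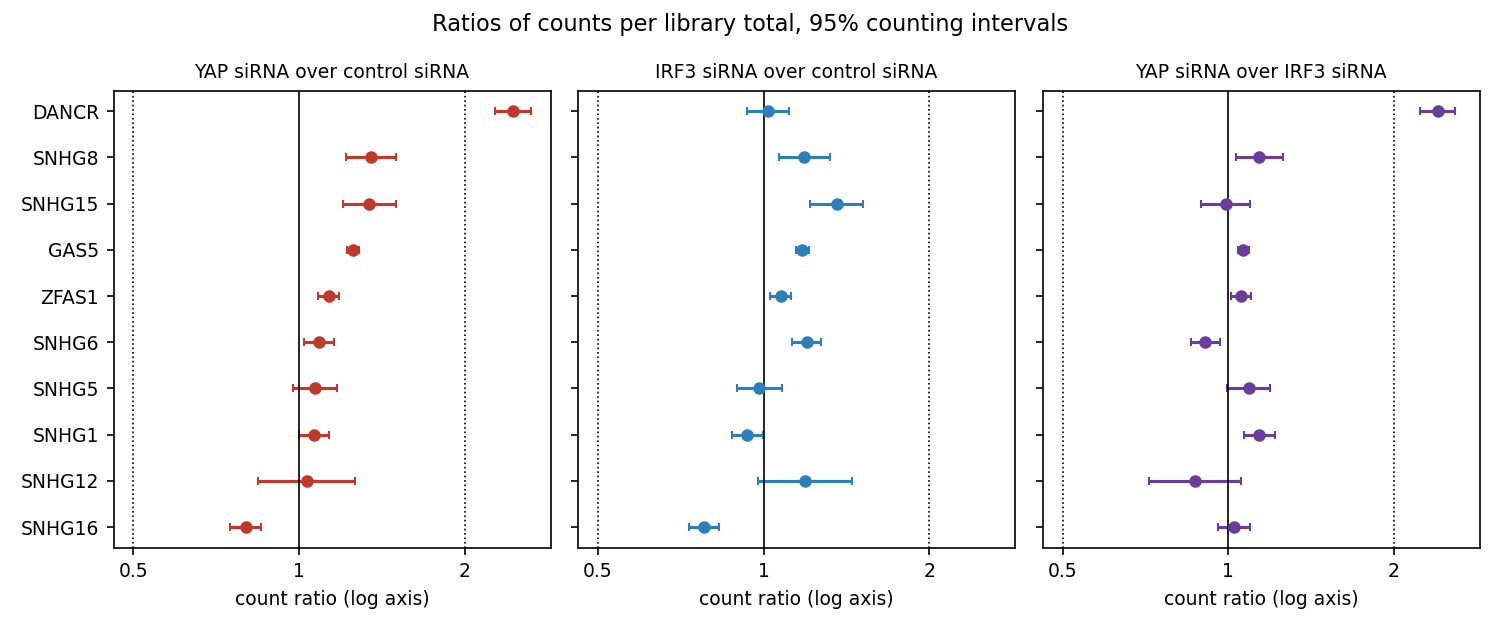
Ratio of counts scaled by library total (log axis) for each host RNA, with 95% counting intervals as bars, for YAP siRNA over control siRNA, IRF3 siRNA over control siRNA and YAP siRNA over IRF3 siRNA; solid and dotted lines mark 1 and a 2-fold difference. DANCR passes 2-fold in both comparisons with the YAP siRNA library, and SNHG16 lies at 0.799 and 0.780 of control.

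By counting error alone, 6 of 10 members had an interval above 1 and 1 below for YAP siRNA over control, where 22.2% and 30.2% of all genes tested did. For IRF3 siRNA over control these were 5 and 2 of 10, beside 24.3% and 32.6%, and for YAP siRNA over IRF3 siRNA 5 and 1 of 10, beside 15.6% and 16%. Such shares of all genes show that counting error is smaller than the differences between libraries, so an interval away from 1 does not stand for a replicate test. The median log2 ratio of the members was 0.15 for YAP siRNA over control and 0.13 for IRF3 siRNA over control, where the median of all genes was -0.02 and -0.03. Highly expressed genes as a group showed like values against control: the tenth of genes with the highest mean FPKM had medians of 0.14 and 0.15. The 775 long noncoding genes had medians of 0.00 and 0.01, and the tenth with the shortest exon length 0.10 and 0.09. The part of expression level and length in the members' ratios was not tested. Between YAP siRNA and IRF3 siRNA the members' median was 0.08, beside 0.01 for all genes and -0.01 for the tenth with the highest mean FPKM, so these values were unlike there. Comparisons with control share 1 control library.

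Together the 10 members took 0.204% of all counts with YAP siRNA, 0.185% with IRF3 siRNA and 0.168% with control siRNA. GAS5 gave 46.9%, 48.5% and 45.2% of the members' counts in these libraries. DANCR gave 8.43% of them with YAP siRNA, 3.88% with IRF3 siRNA and 4.17% with control siRNA. Without DANCR the members came to 1865 CPM with YAP siRNA, 1774 CPM with IRF3 siRNA and 1615 CPM with control siRNA. CPM is the count scaled to the library total. This sum stayed above control in the knockdown libraries, and much of the difference was GAS5, at 954, 896 and 762 CPM. SNHG16 was below control in both knockdown libraries, and SNHG1 and SNHG5 were below it with IRF3 siRNA.

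By deposited FPKM the members ranked, from high to low, ZFAS1, GAS5, SNHG6, DANCR, SNHG8, SNHG16, SNHG1, SNHG15, SNHG5 and SNHG12. The ranges over the 3 libraries overlapped for the neighbours GAS5 and SNHG6, DANCR and SNHG8, SNHG16 and SNHG1, and SNHG15 and SNHG5. This order depends on the gene length behind the deposited values. That length, worked out from each gene's count and FPKM, equalled the summed length of all distinct annotated exons, overlapping ones counted more than once, for 8 of 10 members and within 1% for 88.2% of 11072 genes. For GAS5 it came to 11715 bases, although its exons cover 3631 bases, and for SNHG1 to 14273 against 3756. SNHG5 (3.80 times), GAS5 (3.23 times), SNHG1 (3.80 times) and SNHG16 (2.37 times) were divided by the most inflated lengths, DANCR (1.20 times) and ZFAS1 (1.29 times) by the least. The members' median was 2.16, that of all genes 1.48 and that of long noncoding genes 1.

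Recomputed on the length their exons cover, GAS5 became the highest member, at 263 FPKM with YAP siRNA, 247 with IRF3 siRNA and 210 with control siRNA, and ZFAS1 the next, at 139, 132 and 123 FPKM. DANCR came to 75.1 FPKM with YAP siRNA, 31.3 with IRF3 siRNA and 30.7 with control siRNA. SNHG8 came to 64.1, 56.3 and 47.5 FPKM and SNHG1 to 37.6, 33.0 and 35.4 FPKM. On this scale DANCR was above SNHG8 with YAP siRNA, but below both SNHG8 and SNHG1 with IRF3 siRNA and with control siRNA. Ratios between libraries do not depend on the length except through the pseudocount.

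**Figure D4:**
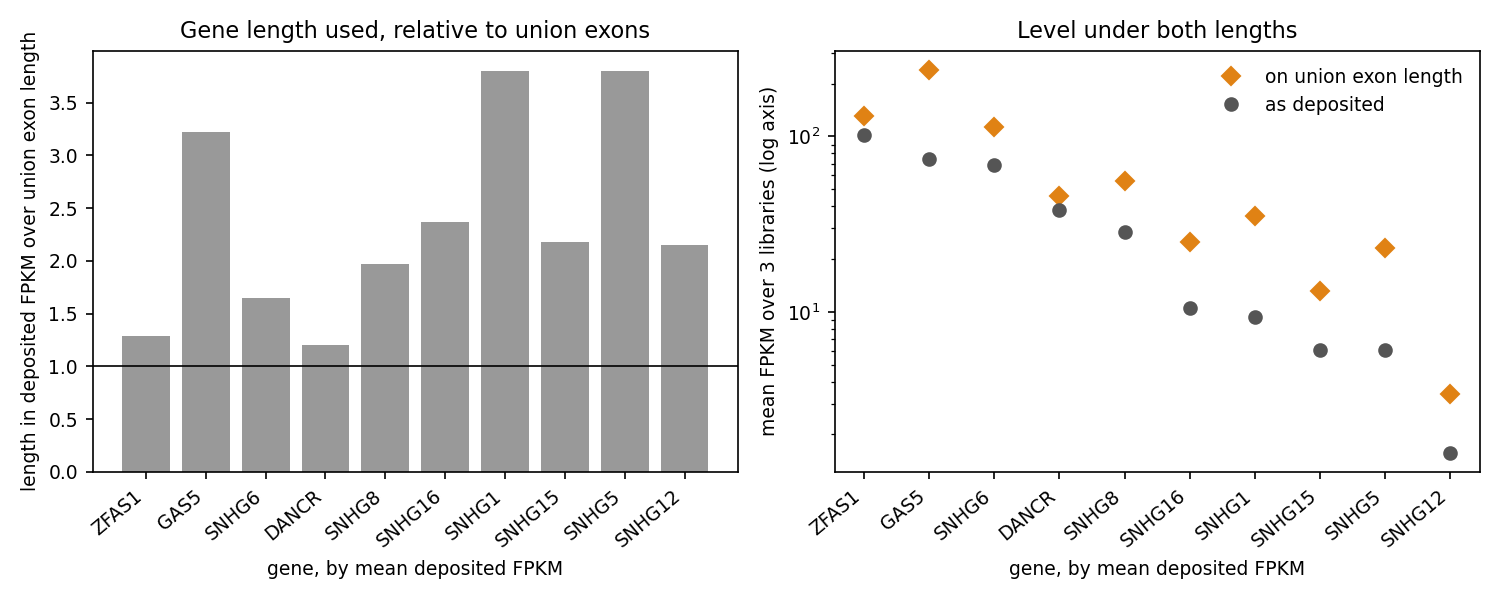
Left, gene length behind the deposited FPKM divided by the length covered by annotated exons, per host RNA, with a line at 1. Right, mean FPKM over the 3 libraries (log axis) as deposited (circles) and on the covered exon length (diamonds); GAS5 has 74.3 FPKM as deposited and 239.8 FPKM on the covered length, above ZFAS1 at 131 FPKM.

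Genes that start close to a member on the opposite strand were read beside it. SLC3A2, the heavy chain of amino acid transporters, starts 188 bases from SNHG1 and had 37.9 FPKM with YAP siRNA, 33.1 with IRF3 siRNA and 37.5 with control siRNA. Both genes were lowest with IRF3 siRNA. ZNFX1 starts 248 bases from ZFAS1 and had 3.13, 2.96 and 4.04 FPKM with YAP, IRF3 and control siRNA, so it was lower in the knockdown libraries, where ZFAS1 was higher. These genes share 249 exon bases, so some reads could belong to either. ZBTB37, 800 bases from GAS5, had 0.127, 0.0514 and 0.119 FPKM, and RP11-666A8.8, 83 bases from SNHG16, had 9, 5 and 8 counts. DANCR and the other members had no such gene within 2000 bases.

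The 12 measured noncoding snoRNA hosts outside the member list gave 0 past 2-fold on the FPKM + 1 scale with either siRNA, where SNHG20 depended on the pseudocount. Their medians were 0.05 for YAP siRNA over control and 0.08 for IRF3 siRNA over control. SNHG7 was higher in both, at 30.4 FPKM with YAP siRNA and 31.4 with IRF3 siRNA against 24.7 with control siRNA. SNHG3, whose locus carries SNORA73A and SNORA73B, had 18.4 FPKM with YAP siRNA and 11.9 with IRF3 siRNA against 21.3 with control siRNA, a count ratio of 0.557 (0.512 to 0.606) for IRF3 siRNA over control. SNHG19 was highest with IRF3 siRNA, at 31.3 FPKM with YAP siRNA and 49.7 with IRF3 siRNA against 30.6 with control siRNA, a count ratio of 1.62 (1.32 to 2.005) for IRF3 siRNA over control, and was named after its values were seen. SNHG20, at 1.09, 1.40 and 0.581 FPKM from 79, 106 and 41 counts with YAP, IRF3 and control siRNA, had a log2 ratio of 0.60 for IRF3 siRNA over control. Its count ratio, which has no pseudocount, was 2.41 (1.67 to 3.55) there and so past 2-fold. SNHG25 had 18, 22 and 20 counts.

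Protein-coding hosts also gave 0 of 43 past 2-fold in each comparison with control, with medians of 0.11 for YAP siRNA and 0.11 for IRF3 siRNA. IPO7, an importin, had log2 ratios of -0.69 with YAP siRNA and -0.78 with IRF3 siRNA, and EIF4G2, a translation initiation factor, -0.68 and -0.65. EIF4A1, the initiation helicase, had 0.56 and 0.22, and the nucleolar protein gene NCL -0.36 and -0.45. Proteins that build snoRNPs, the particles that hold snoRNAs, gave 0 of 17 past 2-fold, with medians of 0.09 and 0.24 in that order. NOP58, a core C/D protein, had 2.75 FPKM with YAP siRNA, 4.13 with IRF3 siRNA and 3.91 with control siRNA, while NOP10, a core H/ACA protein, had 85.9, 80.6 and 68.2 FPKM. PIH1D1 and RPAP3, subunits of an assembly complex, had log2 ratios of 0.33 and -0.31 with YAP siRNA and 0.38 and -0.23 with IRF3 siRNA. In the comparison of YAP siRNA with IRF3 siRNA, 15 of 17 were below 0 and 2 above (median -0.09), where 51.8% of all genes were above 0 (median 0.01). In the tenth of genes with the highest mean FPKM, 519 of 1111 were above 0 (median -0.01). Other lists also leaned below 0 there: 9 of 12 noncoding hosts outside the member list and 23 of 43 protein-coding hosts. Of the lists read below, 8 of 10 mTOR pathway genes, 9 of 14 TOP mRNAs and 8 of 13 decay factors were below 0. Only 1 of 5 decay targets and 1 of 4 partner genes were.

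Nonsense-mediated decay factors gave 0 of 13 past 2-fold with either siRNA, and medians of 0.00 with YAP siRNA and 0.02 with IRF3 siRNA. MAGOH, of the exon junction complex, had log2 ratios of 0.47 with YAP siRNA and 0.57 with IRF3 siRNA, UPF3A -0.44 and -0.30, and PNRC2 -0.33 and -0.36. Of the mRNAs known as decay targets 5 were measured and 0 passed 2-fold, with ATF4 at 0.28 and 0.22, ATF3 at -0.15 and -0.02, GADD45B at 0.12 and -0.08, and GADD45A at -0.12 and -0.18. The mTOR pathway genes that govern TOP mRNAs gave 0 of 10, with medians of 0.01 and 0.10. Among them LARP1, which binds TOP starts, had -0.49 and -0.60, EIF4EBP2 -0.62 and -0.78, TSC1 -0.44 and -0.34, and MTOR -0.36 and -0.34. TOP mRNAs for translation and related factors gave 0 of 14, with medians of 0.12 and 0.00. EEF1A1, which delivers aminoacyl-tRNA, had 0.44 with YAP siRNA and -0.11 with IRF3 siRNA, EEF1G 0.42 and 0.46, EIF4B -0.61 and -0.55, and PABPC1 -0.54 and -0.47.

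**Figure D5:**
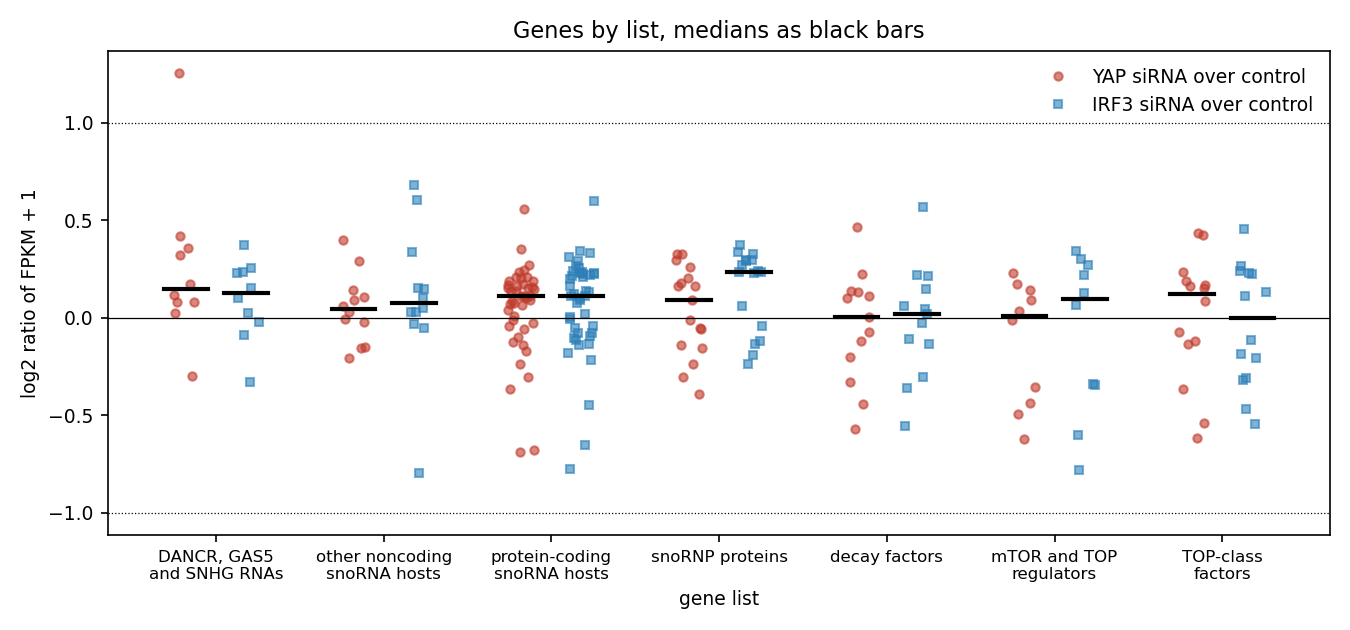
Log2 ratio of FPKM + 1 of each measured gene, for YAP siRNA over control siRNA (circles) and IRF3 siRNA over control siRNA (squares), by gene list, with the median as a black bar and dotted lines at a 2-fold difference. DANCR with YAP siRNA, at 1.26, is the single point beyond the dotted lines.

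Genes reported as partners of DANCR and GAS5 were read too. EZH2, a histone methyltransferase reported to bind DANCR, had 4.10 FPKM with YAP siRNA, 4.37 with IRF3 siRNA and 5.23 with control siRNA. CTNNB1, the beta-catenin gene, had 10.1, 9.93 and 11.2 FPKM. Of 4 measured, 0 passed 2-fold, which includes the glucocorticoid-induced genes TSC22D3 (20.8, 20.3 and 15.8 FPKM) and SGK1 (1.66, 1.59 and 1.80 FPKM).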

How the data were processed

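The authors deposited 1 table with a column of FPKM and a column of raw counts for each of 3 RNA sequencing libraries, per the file headers. TopHat2 version 2.0.9 and genome build hg38 are named in the submitters' processing notes. For the counter, annotation release, strand setting and treatment of multiply matching reads, nothing is stated here. The deposited FPKM agreed within 1% with count over length and library total in 100% of 45223 nonzero values checked. Genes with a mean of at least 1 FPKM were kept (11103), and ratios used FPKM + 1. With 1 library per group there was no test across samples. Counting intervals are Clopper-Pearson intervals and cover counting error only. They treat counts as independent, which PCR copies of a molecule are not. The rule and the intervals were tested on simulated counts that held counting error alone. That test cannot show how they perform when libraries or cultures vary.

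Members and gene lists were chosen with earlier results of these data known. Named genes are the members, IRF3, YAP1, snoRNA rows within a member (0 found), the nearest opposite-strand start within 2000 bases, up to 4 genes per list with the largest absolute ratio of YAP siRNA over control, and the 5 genes closest to DANCR. Some results under this rule are not reported here. Gene class and exon lengths came from GENCODE release 29, promoters and small RNAs from RefSeq. Alternatives were centring on the median gene, TMM-scaled CPM, a smaller pseudocount (0.1), a stricter filter (5 FPKM) or none, a 1.5-fold threshold, noncoding genes alone, overlapping genes summed and, added after seeing the data, FPKM on covered exon length and counts without a pseudocount. Python 3.11.15, numpy 2.4.6, pandas 2.3.3, scipy 1.17.1, matplotlib 3.10.9, R 4.3.3 and edgeR 4.0.16 (TMM factors alone) were used.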

Additional observations from a re-analysis of the deposited data

How the results depend on the processing

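The number of members past the fold threshold (1, 0 and 1 for YAP siRNA over control, IRF3 siRNA over control and YAP siRNA over IRF3 siRNA) was the same under all 10 alternatives, and the members' median kept its direction under each alternative run for it (for IRF3 siRNA over control, 0.20 with TMM-scaled CPM in place of 0.13). With no filter or with noncoding genes alone, neither the number nor the median could change, as all members pass the filter and are noncoding. The stricter filter dropped only SNHG12, which was not past 2-fold, so the number could not change there. Of 267 member values recomputed under the alternatives, 99 could not move. The filters, the restriction to noncoding genes or the summing of overlaps (for members with none) left those as they were. The other 168 moved by less than 0.5 of the width of their counting interval on the log2 scale. In 3 of these a log2 ratio close to 0 for IRF3 siRNA over control changed sign: SNHG5 (-0.02) came to 0.00 when centred on the median gene and 0.01 with TMM-scaled CPM, and DANCR (0.03) came to -0.04 with overlapping genes summed. Depth limits SNHG12 most, with 188 to 239 counts per library. Variation between cultures was not measured, because each group had 1 library, and no library could be left out in turn. No paired analysis was possible because each group had 1 library and no result comes from a test.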

Other observations

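Across the 5290 other genes with a mean of at least 5 FPKM, UBB, UBE2D2, IER2, ORAI3 and IFI30 were closest to DANCR by the distance over both log2 ratios to control, at 0.24, 0.30, 0.41, 0.46 and 0.50. This likeness rests on 3 libraries and on a shared control. UBB, a polyubiquitin gene, had 229 FPKM with YAP siRNA, 122 with IRF3 siRNA and 107 with control siRNA. UBE2D2, a ubiquitin-conjugating enzyme, had 27.3, 13.5 and 13.6 FPKM, and IER2, an immediate early gene, 24.5, 6.93 and 7.01 FPKM. The calcium channel subunit gene ORAI3 had 7.95, 4.40 and 4.13 FPKM and IFI30, a lysosomal thiol reductase, 88.4, 57.8 and 50.9 FPKM. In each of these genes the YAP siRNA library was the highest, as it was for DANCR, which the choice by likeness fixes.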
